A study of Mus musculus with 8 samples.

Results

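Paneth cells carry, beside their alpha-defensins, a second set of secreted defence proteins. Under that heading 6 genes were followed through the mouse colon adenomas of this study: Lyz1, Lyz2, Ang4, Itln1, Pla2g2a and Habp2. The heading does not suit all of them equally. Lyz2 is known as the lysozyme of macrophages and neutrophils, and Habp2 encodes a protease of blood plasma. Pla2g2a carries a disrupting mutation in the C57BL/6 strain. The 6 genes were picked by symbol from the 31189 genes of the deposited tables. Earlier results of these data were known, so the choice was not independent of the values. All 6 passed the filter on low counts that left 17218 genes for testing. Paneth cells sit at the base of small intestinal crypts, where they store antimicrobial proteins in granules and feed neighbouring stem cells with WNT and other signals, and the normal mouse colon has few or none of them. Their maturation depends on canonical WNT signalling, the pathway that keeps β-catenin stable and that is switched on in both adenoma types studied here. The alpha-defensins are the best known Paneth cell products and are given below only as 1 summed value per library.

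RNA was sequenced from 8 colon samples of C57BL/6J mice in 4 groups, each adenoma having been cut out singly. The first was 3 adenomas of untreated ApcMin/+ mice, which carry 1 mutant copy of Apc, a negative regulator of WNT signalling, and had reached 110 to 120 days of age when killed. The second was 1 section of non-adenoma colon from an ApcMin/+ mouse. The third was 3 adenomas of wild-type mice that had been injected with azoxymethane (AOM, 10 mg/kg), a carcinogen, when 6 to 7 weeks old. These mice then drank dextran sulfate sodium (DSS, 2%), an agent of colitis, in 3 cycles and were killed 70 days after AOM. The fourth was 1 section of non-adenoma colon from an AOM/DSS-treated mouse. Per the labels, the AOM/DSS adenomas were wild type for Apc and expressed a β-catenin that resists degradation. The sections are thus no healthy baseline: one carried the Apc mutation in all its cells and the other had been through carcinogen and colitis. Neither the mouse behind each section nor a separate mouse for each adenoma is stated in the labels. The p-values therefore measure only the spread of these samples, which may be technical, and each lone section was assumed to vary like the adenomas.

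Libraries held 18156974 to 22720164 counts. Levels are given as CPM, which are counts scaled to library size (TMM method), or, where genes are compared with each other, as FPKM, which also divides by transcript length. The summed level of 11 epithelial genes was 6972 to 9692 CPM in ApcMin/+ adenomas against 12040 CPM in the ApcMin/+ section, and 7839 to 9100 CPM in AOM/DSS adenomas against 12040 CPM in the AOM/DSS section. The 9 smooth muscle genes summed to 638 to 1891 CPM in ApcMin/+ adenomas against 6476 CPM in their section, and to 262 to 467 CPM in AOM/DSS adenomas against 9227 CPM in theirs. The third ApcMin/+ adenoma stood apart from the other adenomas of its group. It had 10170 CPM of goblet and deep crypt genes, beside 1033 and 1321 CPM in the others, 1891 CPM of smooth muscle genes, beside 638 and 683 CPM, and 986 CPM of normal colon epithelium genes, beside 508 and 533 CPM. Without it the genes called between ApcMin/+ adenomas and their section numbered 4419, against 2824 with it, and 5 of the 6 genes described here were called either way. In AOM/DSS adenomas, where it enters only through the shared estimate of spread, 3 of the 6 were called without it and 2 with it. In such bulk samples more cells of a type and more RNA per cell cannot be told apart. Apc itself, whose mutation in the Min allele is a point mutation, had 150.3 to 154.3 CPM in ApcMin/+ adenomas against 132 CPM in their section, so its level checks nothing about genotype.

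Lyz1, Ang4, Itln1, Pla2g2a and Habp2 rose in adenomas, by log2 fold changes of 2.16 (Ang4) to 4.55 (Habp2) over both models, while Lyz2 did not pass the test. For each of the 6 genes every one of the 6 adenomas stood above both sections, a separation that 20.1% of all tested genes also showed in that direction. With terms for model and tissue, edgeR's quasi-likelihood test called 5 of the 6 higher in the 6 adenomas than in the 2 sections (Benjamini-Hochberg adjusted p under 0.05 over all tested genes), where 18.3% of all tested genes were called higher. The median log2 fold change of the 6 genes was 3.16, against 0.07 over all tested genes. With either section left out, the fit holds the change of the other model alone and no change over both. Without the ApcMin/+ section the log2 fold change was 1.83 for Ang4 and 1.65 for Pla2g2a, the values in AOM/DSS adenomas.

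**Figure D1:**
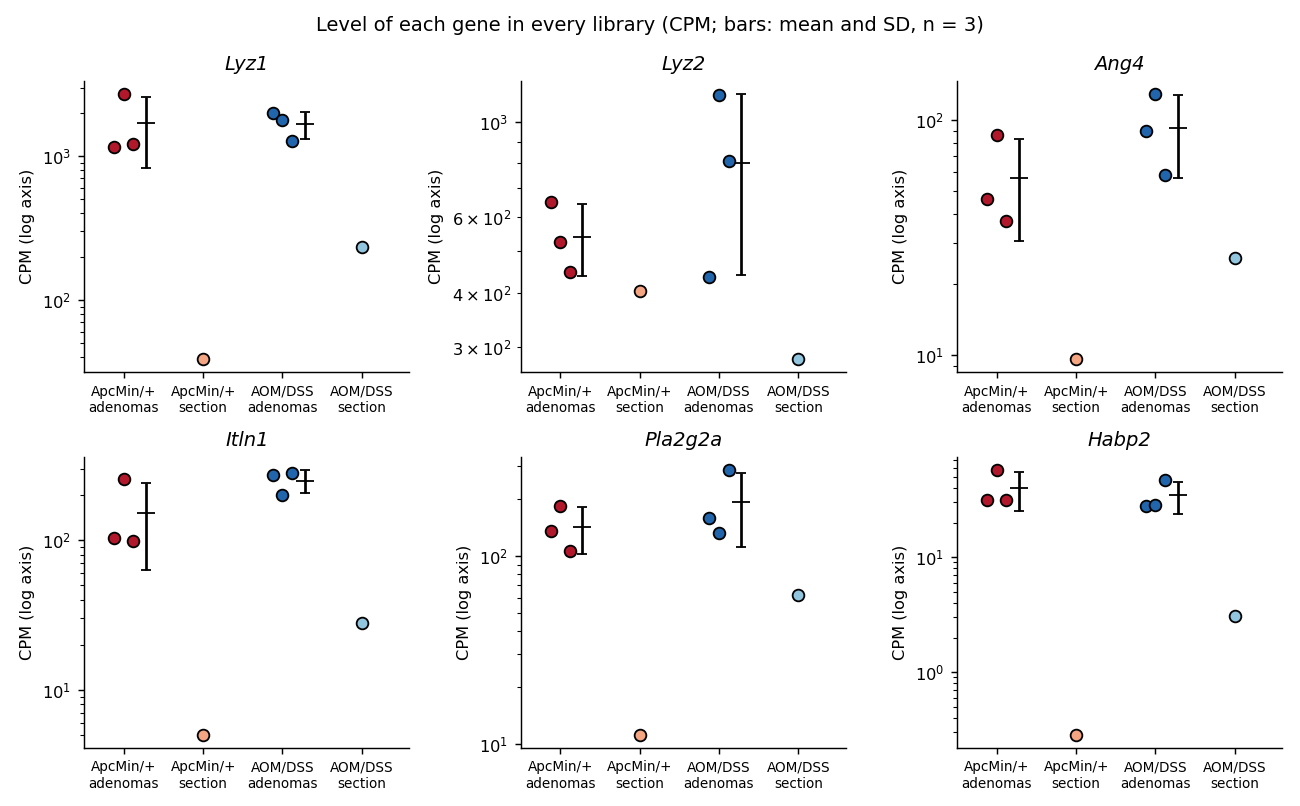
CPM on log axes for each gene in every library, with dark points for adenomas, light points for the lone sections and bars for mean and SD of 3 adenomas. Each adenoma lies above its section in all 6 panels, and the gap is narrowest for Lyz2 in ApcMin/+ mice, where the lowest adenoma had 446 CPM and the section 405 CPM.

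Lyz1 and Lyz2 encode lysozyme, an enzyme that cuts the peptidoglycan wall of bacteria. Mice carry both genes side by side, and Lyz1 is known as the Paneth cell form while Lyz2 is known as the form of macrophages and neutrophils. Lyz1 had 1163, 2695 and 1222 CPM in the ApcMin/+ adenomas, against 39.0 CPM in the ApcMin/+ section. In the AOM/DSS adenomas it had 1983, 1782 and 1282 CPM, against 232 CPM in the AOM/DSS section. All 6 adenomas thus lay at least 5.01-fold above the higher of the sections, and the second ApcMin/+ adenoma was the highest library. Lyz1 rose in ApcMin/+ adenomas by a log2 fold change of 5.44 ± 0.72 (SE, edgeR, adjusted p = 0.0133). In AOM/DSS adenomas its log2 fold change was 2.86 ± 0.62 (edgeR, adjusted p = 0.0502), which missed the threshold by a narrow margin and passed it in 9 of 16 other ways of fitting. Over both models it rose by 3.85 ± 0.74 (edgeR, adjusted p = 0.00977).

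Lyz2 had 652, 525 and 446 CPM in the ApcMin/+ adenomas, against 405 CPM in the ApcMin/+ section. In the AOM/DSS adenomas it had 435, 1153 and 813 CPM, against 281 CPM in the AOM/DSS section. The lowest AOM/DSS adenoma was only a little above the ApcMin/+ section, so the separation was slight. The log2 fold change was 0.42 ± 0.50 in ApcMin/+ adenomas (edgeR, adjusted p = 0.575), 1.51 ± 0.54 in AOM/DSS adenomas (edgeR, adjusted p = 0.123) and 0.91 ± 0.41 over both models (edgeR, adjusted p = 0.118). None of the 3 passed. With libraries scaled to the epithelial genes in place of all genes, which moved the median of all genes up by 0.54, Lyz2 did pass over both models (log2 fold change 1.49, adjusted p = 0.0301).

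Lyz2 was read beside a list of 16 tested macrophage genes. These summed to 613 to 686 CPM in ApcMin/+ adenomas against 672 CPM in the ApcMin/+ section, and to 870 to 1470 CPM in AOM/DSS adenomas against 537 CPM in the AOM/DSS section. Lyz2 per CPM of that list was 0.950, 0.856 and 0.678 in ApcMin/+ adenomas against 0.603 in their section, and 0.4998, 0.784 and 0.918 in AOM/DSS adenomas against 0.523 in theirs. Of the macrophage genes 1 rose over both models, the integrin subunit Itgam (log2 fold change 1.01 ± 0.24, edgeR, adjusted p = 0.0186), and none fell. Among all tested genes, 18.3% were called higher and 15.8% lower. Cx3cr1, the fractalkine receptor of tissue macrophages, rose in AOM/DSS adenomas (1.90 ± 0.29, edgeR, adjusted p = 0.0309). The part of macrophage number in the Lyz2 level was not tested. Lyz1 per CPM of the same list was 1.21 to 4.40 over the 6 adenomas, against 0.058 in the ApcMin/+ section and 0.432 in the AOM/DSS section.

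The ratio of the 2 lysozymes turned over between tissues. By FPKM, Lyz1 exceeded Lyz2 1.82-, 5.28- and 2.82-fold in the ApcMin/+ adenomas, while in the ApcMin/+ section the ratio was 0.099. In the AOM/DSS adenomas the ratio was 4.64, 1.56 and 1.60, and in the AOM/DSS section it was 0.852. Lyz1 was the most abundant of the 6 genes by FPKM in all 6 adenomas, and Lyz2 in both sections. Among all genes of a library, Lyz1 ranked between 44 and 113 by FPKM in the adenomas, against 3308 in the ApcMin/+ section and 648 in the AOM/DSS section.

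How far reads can be split between the pair depends on their sequences, so these are shown. The coding sequences are each 444 bases long, differ at 22 bases, and are 95% identical, with a longest identical run of 118 bases. The first 150 coding bases follow, 5′ to 3′ from the GENCODE transcripts of GRCm38, where capitals mark the 14 bases at which the genes differ.
Lyz1: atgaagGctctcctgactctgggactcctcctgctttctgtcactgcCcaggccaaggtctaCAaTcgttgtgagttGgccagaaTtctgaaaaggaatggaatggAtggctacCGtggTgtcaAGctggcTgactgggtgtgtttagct
Lyz2: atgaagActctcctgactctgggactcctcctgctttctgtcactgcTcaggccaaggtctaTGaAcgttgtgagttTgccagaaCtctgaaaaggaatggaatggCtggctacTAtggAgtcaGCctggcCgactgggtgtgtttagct
Over the whole transcript, 16.06% of the 50-base stretches of Lyz1 and 15.39% of those of Lyz2 occur in the other gene, and 2.06% and 1.97% of the 100-base stretches do. Read length and the handling of reads that match both genes were not stated. The estimated counts of both genes were not whole numbers, and how far the split moves counts from one gene to the other was not tested. In the ApcMin/+ section Lyz1 had 680 counts beside 7069 for Lyz2, which makes it the library where such a shift would weigh most on the Lyz1 value.

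The regions just upstream are also alike, and they are shown because the neighbours differed in how they went with adenoma tissue. The 250 bases before the start of each gene are given 5′ to 3′ on the gene's strand (minus strand of chromosome 10, RefSeq starts, build GRCm38.p6), with capitals at bases that differ in the alignment of the pair, 50 in each. The Lyz1 window is chr10:117292869-117293118 and the Lyz2 window chr10:117282273-117282522.
Lyz1: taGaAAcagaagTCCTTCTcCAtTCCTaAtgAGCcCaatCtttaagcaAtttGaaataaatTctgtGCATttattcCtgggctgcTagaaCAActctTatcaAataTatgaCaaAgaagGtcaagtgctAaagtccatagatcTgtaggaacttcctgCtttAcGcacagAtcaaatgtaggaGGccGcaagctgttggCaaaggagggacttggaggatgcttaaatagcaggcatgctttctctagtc
Lyz2: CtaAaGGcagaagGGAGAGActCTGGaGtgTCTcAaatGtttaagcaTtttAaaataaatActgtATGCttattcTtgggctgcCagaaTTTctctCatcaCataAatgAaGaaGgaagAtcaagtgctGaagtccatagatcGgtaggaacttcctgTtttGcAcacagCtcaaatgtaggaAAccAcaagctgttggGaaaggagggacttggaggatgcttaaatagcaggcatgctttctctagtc
The part nearest the start is almost free of capitals, while the far end holds runs of them. Over windows that reach 50 bases past the start, 82.5% of 302 aligned columns were identical. Such windows were found in RefSeq for 5 of the 6 genes, all but Pla2g2a. They were searched on both strands for the TCF/LEF motif, spelled CTTTGAA in one form, CTTTGAT in another, or CTTTGTA, and also as CTTTGTT, and for the SOX letters AACAAT. None of the 5 windows held a TCF/LEF match, where 16.9% of 32544 promoters hold at least 1, and 1 (Itln1) held the SOX letters, where 10.6% do. These are matches of letters in a short window and say nothing about binding. The windows follow RefSeq starts. GENCODE starts Habp2 at base 56287137 of the plus strand, so its window (56287662 to 56287911) lies inside that gene. For Lyz2, GENCODE's start on the minus strand, 117282321, falls within the window.

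Ang4 is an angiogenin-family ribonuclease known in mice as a microbicidal Paneth cell granule protein. Among the 5 genes called over both models, it had the smallest rise in that comparison. It had 46.3, 86.4 and 37.2 CPM in the ApcMin/+ adenomas, against 9.63 CPM in the ApcMin/+ section. The AOM/DSS adenomas had 89.4, 129 and 58.3 CPM, against 26.0 CPM in the AOM/DSS section. The lowest adenoma was 1.43-fold above the AOM/DSS section, the narrowest gap among the called genes. Ang4 rose in ApcMin/+ adenomas by 2.56 ± 0.66 on the log2 scale (SE, edgeR, adjusted p = 0.0457), a call that was lost in 6 of 16 other ways of fitting. Its value in AOM/DSS adenomas was 1.83 ± 0.62 (edgeR, adjusted p = 0.113), and over both models it rose by 2.16 ± 0.45 (edgeR, adjusted p = 0.012). It shares 4.7% of its 50-base stretches with other genes, nearly all of them with Ang5, which reached at most 0.0534 CPM in any library.

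The rest of the ribonuclease A family did not move as a block. Of 5 other tested members, 1 was called higher over both models and none lower, where 18.3% of all tested genes were called higher and 15.8% lower. That gene was Rnase1, a secreted pancreatic-type ribonuclease, with 35.0, 54.7 and 23.3 CPM in ApcMin/+ adenomas against 0.287 CPM in their section, and 27.8, 16.8 and 23.3 CPM in AOM/DSS adenomas against 4.80 CPM in theirs. Its log2 fold change over both models was 3.53 ± 0.98 (edgeR, adjusted p = 0.0283). The very low value in the ApcMin/+ section leaves the size of that change loosely set. Ang, the angiogenin gene itself, had -0.53 ± 0.19 (edgeR, adjusted p = 0.0685), and Rnase4 had -0.29 ± 0.16 (edgeR, adjusted p = 0.193).

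Itln1 encodes intelectin, a secreted lectin that binds sugars found on microbial surfaces. It had 103.5, 256 and 98.9 CPM in the ApcMin/+ adenomas, against 5.04 CPM in the ApcMin/+ section. In the AOM/DSS adenomas it had 271, 199 and 279 CPM, against 28.02 CPM in the AOM/DSS section. The 6 adenomas stood well clear of both sections, with the second ApcMin/+ adenoma at the level of the AOM/DSS ones. Itln1 was called in both models: it rose by 4.92 ± 0.76 in ApcMin/+ adenomas (log2 ± SE, edgeR, adjusted p = 0.0179) and by 3.16 ± 0.67 in AOM/DSS adenomas (edgeR, adjusted p = 0.0488). The second call was lost in 4 of 16 other fits, all of them without 1 adenoma. Over both models it rose by 3.87 ± 0.62 (edgeR, adjusted p = 0.00655). By FPKM Itln1 exceeded Ang4 2.02- to 6.18-fold in the 6 adenomas, against 0.468-fold in the ApcMin/+ section and 1.21-fold in the AOM/DSS section.

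Pla2g2a encodes the secreted group IIA phospholipase, which attacks bacterial membranes. In the C57BL/6 strain the gene carries a disrupting mutation and has been named as the Mom1 modifier of polyp number in Min mice, and GENCODE lists it as a polymorphic pseudogene, so its RNA level here is not a level of enzyme. Pla2g2a had 136, 184 and 106 CPM in the ApcMin/+ adenomas, against 11.2 CPM in the ApcMin/+ section. AOM/DSS adenomas had 159.8, 133 and 287 CPM, against 61.6 CPM in the AOM/DSS section. Here too no adenoma overlapped a section, and the third AOM/DSS adenoma was the highest library. Pla2g2a rose in ApcMin/+ adenomas by 3.66 ± 0.60 (log2 ± SE, edgeR, adjusted p = 0.0196), had 1.65 ± 0.51 in AOM/DSS adenomas (edgeR, adjusted p = 0.0961), and rose over both models by 2.46 ± 0.56 (edgeR, adjusted p = 0.0153).

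Among 15 other tested phospholipase A2 genes, 4 were called higher and 5 lower over both models, with a median log2 fold change of -0.55, where 18.3% of all tested genes were called higher and 15.8% lower. Pla2g7, a platelet-activating factor hydrolase, rose by 1.55 ± 0.27 (edgeR, adjusted p = 0.00804), and Pla2g6, a calcium-independent intracellular enzyme, rose by 1.12 ± 0.21 (edgeR, adjusted p = 0.0094). Pla2g5, a secreted enzyme of the same gene cluster as Pla2g2a, fell to 8.31, 8.11 and 19.6 CPM in ApcMin/+ adenomas against 42.2 CPM in their section, and to 5.32, 6.56 and 5.20 CPM in AOM/DSS adenomas against 58.0 CPM in theirs. Its log2 fold change was -2.68 ± 0.41 (edgeR, adjusted p = 0.00641), so this pair went in opposite directions. The other genes named Pla2g2, chosen after their values were seen, went both ways over both models. Pla2g2d rose by 1.57 ± 0.40 (edgeR, adjusted p = 0.0218) and Pla2g2f had -1.36 ± 0.43 (edgeR, adjusted p = 0.0435). Pla2g2e (1.66 ± 0.63) and Pla2g2c (-1.76 ± 0.64) did not pass.

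Habp2 encodes hyaluronan-binding protein 2, a protease of blood plasma also called factor VII-activating protease, which in humans is made mainly by the liver. It was the rarest of the 6 genes by FPKM in all 8 libraries and had the largest fold changes of the 6. It had 31.7, 57.5 and 31.2 CPM in the ApcMin/+ adenomas, against 0.287 CPM in the ApcMin/+ section, which rests on 5 counts. Its AOM/DSS adenomas had 28.1, 28.4 and 47.1 CPM, against 3.05 CPM, or 61 counts, in the AOM/DSS section. The adenomas of the models lay in the same range, and the sections far below them. Habp2 rose by 7.10 ± 0.78 in ApcMin/+ adenomas (log2 ± SE, edgeR, adjusted p = 0.0101), by 3.50 ± 0.58 in AOM/DSS adenomas (edgeR, adjusted p = 0.0328) and by 4.55 ± 0.80 over both models (edgeR, adjusted p = 0.00788). The AOM/DSS call was lost in 6 of 16 other fits.

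Because the ApcMin/+ section held so few Habp2 counts, the size of its fold is loosely set. The 3 ApcMin/+ adenomas together were 140.6-fold above their section, with a 95% exact interval of 60.2 to 433 from counting alone. The 3 AOM/DSS adenomas together were 11.5-fold above theirs, with an interval of 8.89 to 15.04. The authors' deposited table gives 14.9, 25.1 and 14.0 for the ApcMin/+ adenomas and 6.93, 5.75 and 11.6 for the AOM/DSS adenomas, ratios of FPKM values that hold an added 1. With that 1 subtracted the FPKM ratios are 141.6, 244 and 132 for ApcMin/+ and 11.01, 9.02 and 18.9 for AOM/DSS. For Lyz1, which is far from the floor, the ratios of FPKM as deposited and of FPKM with 1 subtracted differed little (34.5 and 35.3 for the first ApcMin/+ adenoma). Habp2 shares 7.92% of its 50-base stretches with Nrap, a neighbouring muscle gene. Nrap had 1.02 to 8.24 CPM in ApcMin/+ adenomas against 25.7 CPM in their section, and 1.20 to 3.90 CPM in AOM/DSS adenomas against 15.9 CPM in theirs, the opposite direction to Habp2.

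Substrates, partners and inhibitors of Habp2 were read from a list of urokinase and plasminogen, hyaluronan, coagulation and kinin genes. Of 20 tested, 8 were called higher over both models and none lower, with a median log2 fold change of 0.84. Among all tested genes, 18.3% were called higher and 15.8% lower. Cd44, the hyaluronan receptor, rose by 1.92 ± 0.27 (edgeR, adjusted p = 0.00581) and Has3, a hyaluronan synthase, by 3.69 ± 0.71 (edgeR, adjusted p = 0.00971). Has3 had only 0.287 CPM in the ApcMin/+ section and 0.350 CPM in the AOM/DSS section, so the size of its rise is loosely set. Hyal1, a hyaluronidase, rose by 1.5 ± 0.27 (edgeR, adjusted p = 0.00858) and Plau, the urokinase that activates plasminogen, by 1.29 ± 0.23 (edgeR, adjusted p = 0.00819).

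Set out by comparison, edgeR called 5 of the 6 genes higher in ApcMin/+ adenomas than in the ApcMin/+ section, where 10.1% of all tested genes were called higher. The median log2 fold change was 4.29 for the 6 genes and 0.03 for all tested genes. In AOM/DSS adenomas 2 of the 6 were called higher, where 2.38% of all tested genes were. There the median was 2.34 for the 6 genes and 0.14 for all, all 6 had an unadjusted p under 0.05 (as did 29.9% of all tested genes), and DESeq2 called all 6. DESeq2 also called more of all genes higher in this comparison, 1390 against 409 by edgeR. The AOM/DSS count was 0 without any 1 AOM/DSS adenoma, and also without the first ApcMin/+ adenoma, which enters only through the shared estimate of spread, and 1 without the second ApcMin/+ adenoma. The ApcMin/+ count was 3 without the first or the second ApcMin/+ adenoma. No gene of the 6 was called lower in either model, where 6.35% of all tested genes were called lower in ApcMin/+ adenomas and 2.63% in AOM/DSS adenomas. Every adenoma exceeded its own section for all 6 genes, as it did for 41.3% of all tested genes in ApcMin/+ mice and 41.2% in AOM/DSS mice.

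**Figure D2:**
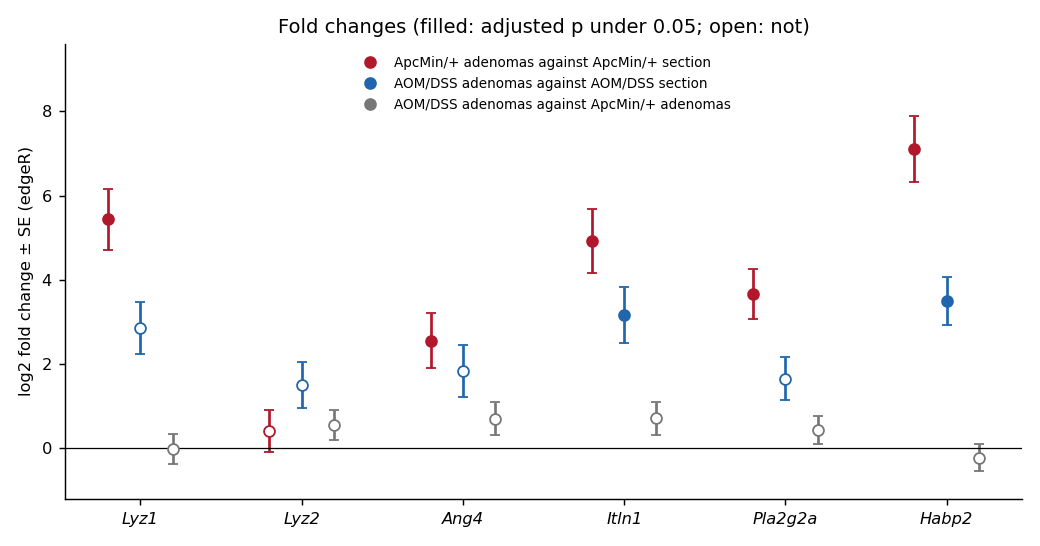
Log2 fold change ± SE from edgeR (vertical axis) for each gene in 3 comparisons, filled where the adjusted p was under 0.05. ApcMin/+ values are above AOM/DSS values for every gene except Lyz2, and the 6 grey values, which compare the adenomas of the models, lie between -0.22 and 0.71.

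The adenomas of the 2 models were then set against each other. None of the 6 genes was called in either direction between AOM/DSS and ApcMin/+ adenomas, by edgeR or by DESeq2, where edgeR called 10.2% of all tested genes higher and 7.9% lower. None had an unadjusted p under 0.05, as 36.1% of all tested genes did. The libraries of both groups overlapped for all 6, whereas 22.4% of all tested genes were higher and 20.6% lower with no overlap. The log2 difference was -0.01 ± 0.36 for Lyz1, 0.56 ± 0.35 for Lyz2 and 0.70 ± 0.39 for Ang4. For Itln1 it was 0.71 ± 0.39, for Pla2g2a 0.44 ± 0.33 and for Habp2 -0.22 ± 0.32. The edgeR adjusted p ranged over these 6 genes between 0.23 (Itln1) and 0.99 (Lyz1). The second ApcMin/+ adenoma, the highest library for Lyz1 and Habp2, weighed on this comparison: without it Itln1 was called higher in AOM/DSS adenomas (log2 difference 1.33, adjusted p = 0.0293).

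The non-adenoma sections of the models were also set side by side. The AOM/DSS section was higher than the ApcMin/+ section 5.96-fold for Lyz1, 2.70-fold for Ang4, 5.56-fold for Itln1 and 5.48-fold for Pla2g2a. For Habp2 the ratio was 10.7, with a counting interval of 4.32 to 33.97. Lyz2 was the exception, with a ratio of 0.694. Each side is 1 library and this contrast was not tested, and 7.18% of all tested genes were over 2-fold higher in the AOM/DSS section. The difference between the models in the adenoma change was -2.58 ± 0.74 for Lyz1 (log2 ± SE, edgeR, adjusted p = 0.532), -3.60 ± 0.88 for Habp2 (edgeR, adjusted p = 0.454) and -2.01 ± 0.68 for Pla2g2a (edgeR, adjusted p = 0.577). These 3 had an unadjusted p under 0.05, as did 7.95% of all tested genes, while edgeR called no gene at all. DESeq2 called 184 genes, with Lyz1 (adjusted p = 0.0121) and Habp2 (adjusted p = 0.0143) among them, both with a smaller change in AOM/DSS mice. Since each model's change leans on 1 section, a difference between models and a difference between these sections cannot be told apart.

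The adenomas also varied among themselves. The highest of the 6 adenomas exceeded the lowest 3.47-fold for Ang4, 2.83-fold for Itln1 and 2.70-fold for Pla2g2a. For Lyz2 the ratio was 2.65, for Lyz1 2.32 and for Habp2 2.05. The second ApcMin/+ adenoma led its group for 5 of the 6 genes, all but Lyz2. Among AOM/DSS adenomas the lead changed from gene to gene: the first was highest for Lyz1, the second for Lyz2 and Ang4, and the third for Itln1, Pla2g2a and Habp2. Summed over the 6 genes, FPKM was 3324, 5639 and 2841 in ApcMin/+ adenomas against 536 in their section, and 4850, 5151 and 5021 in AOM/DSS adenomas against 938 in theirs. Lyz1 made up 46.1%, 60.1% and 54.8% of that sum in ApcMin/+ adenomas against 8.11% in their section, and 52.5%, 43.1% and 33.3% in AOM/DSS adenomas against 29.7% in theirs.

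**Figure D3:**
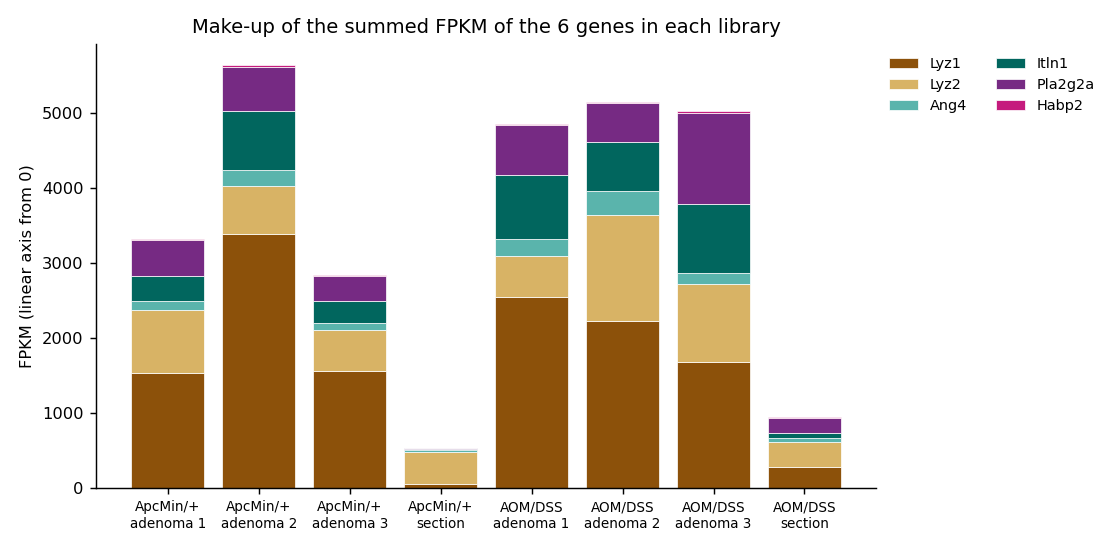
Stacked bars of FPKM on a linear axis from 0, 1 bar per library, split by gene. The bars of the 6 adenomas reach 2841 to 5639 and those of the sections 536 and 938, with Lyz1 the largest block in every adenoma and Lyz2 in both sections.

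Products of Paneth cells outside the chosen 6 genes were compared. The 30 alpha-defensin symbols of the tables summed to 292, 635 and 330.4 CPM in ApcMin/+ adenomas against 9.80 CPM in the ApcMin/+ section, and to 1749, 1792 and 1181 CPM in AOM/DSS adenomas against 137 CPM in the AOM/DSS section. Unlike Lyz1, that sum did not overlap between the adenomas of the models. Of 6 tested Paneth cell genes outside the defensins and the chosen 6, 2 were called higher over both models and none lower. Among all tested genes, 18.3% were called higher and 15.8% lower. Mmp7, the matrilysin that cuts mouse alpha-defensins into active form, had 492, 617 and 255 CPM in ApcMin/+ adenomas against 3.67 CPM in their section. In AOM/DSS adenomas it had 523, 670.2 and 638 CPM against 61.8 CPM in theirs, and it rose over both models by 4.51 ± 0.93 (edgeR, adjusted p = 0.0113). Mptx2, a pentraxin of Paneth cells, had 44.8, 17.7 and 12.1 CPM in ApcMin/+ adenomas against 0.229 CPM in their section, and 20.3, 119 and 58.8 CPM in AOM/DSS adenomas against 0.601 CPM in theirs. It rose by 6.75 ± 1.11 (edgeR, adjusted p = 0.00689), a size loosely set because both section values are very low. Cd24a had 0.55 ± 0.20 (edgeR, adjusted p = 0.0689) and the colipase gene Clps -0.29 ± 0.42 (edgeR, adjusted p = 0.626). Reg3b and Reg3g, chosen after their values were seen, had -0.78 ± 1.6 and 0.89 ± 1.57 (edgeR, adjusted p = 0.735 and 0.691). In AOM/DSS adenomas Reg3b had 18.4, 304 and 28.4 CPM against 546 CPM in the section. Reg3g had 20.1, 552 and 31.6 CPM there against 264 CPM. In ApcMin/+ adenomas both exceeded the section, with Reg3b at 50.1, 89.1 and 10.7 CPM against 5.73 CPM.

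Genes of Paneth cell fate and the crypt base went both ways. Of 14 tested, 3 rose and 6 fell over both models, with a median log2 fold change of -0.51. Of all tested genes 18.3% were called higher and 15.8% lower, so the share that rose is near that of all genes. Gfi1, a transcription factor of secretory cells, had 2.59, 2.97 and 4.58 CPM in ApcMin/+ adenomas against 13.9 CPM in their section, and 3.35, 6.30 and 4.22 CPM in AOM/DSS adenomas against 14.5 CPM in theirs. It fell by 1.85 on the log2 scale (SE 0.30, edgeR, adjusted p = 0.00687). Fgfr3, a growth factor receptor, fell by 3.41 (SE 0.54, edgeR, adjusted p = 0.00655) and Tcf7l2, which partners β-catenin on DNA, by 0.66 (SE 0.13, edgeR, adjusted p = 0.0106). Ctnnb1, which encodes β-catenin, rose by 0.82 ± 0.17 (edgeR, adjusted p = 0.0126). Chosen after their values were seen, Atoh1, which commits crypt cells to secretory fates, had -2.83 ± 0.68 (edgeR, adjusted p = 0.0177), Spdef had -3.08 ± 0.66 (edgeR, adjusted p = 0.0129) and Sox9, which is needed for Paneth cells to form in mice, had 0.96 ± 0.25 (edgeR, adjusted p = 0.0247).

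Goblet and deep crypt secretory cells, the secretory cells that the normal colon does have, had lower levels of their genes in adenomas. Of 13 tested genes 10 fell over both models and none rose, where 15.8% of all tested genes were called lower, and the median log2 fold change of the list was -3.09. The list summed to 1033 to 10170 CPM in ApcMin/+ adenomas against 32430 CPM in their section, and to 748 to 1963 CPM in AOM/DSS adenomas against 19000 CPM in theirs. The 10170 CPM are those of the third ApcMin/+ adenoma alone. Kit, a receptor of deep crypt secretory cells, fell by 2.29 (SE 0.32, edgeR, adjusted p = 0.00542) and Agr2, which folds mucins, by 3.09 (SE 0.66, edgeR, adjusted p = 0.0126). Sytl2 and Spink4 fell by 1.77 and 2.59 (edgeR, adjusted p = 0.00759 and 0.012).

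**Figure D4:**
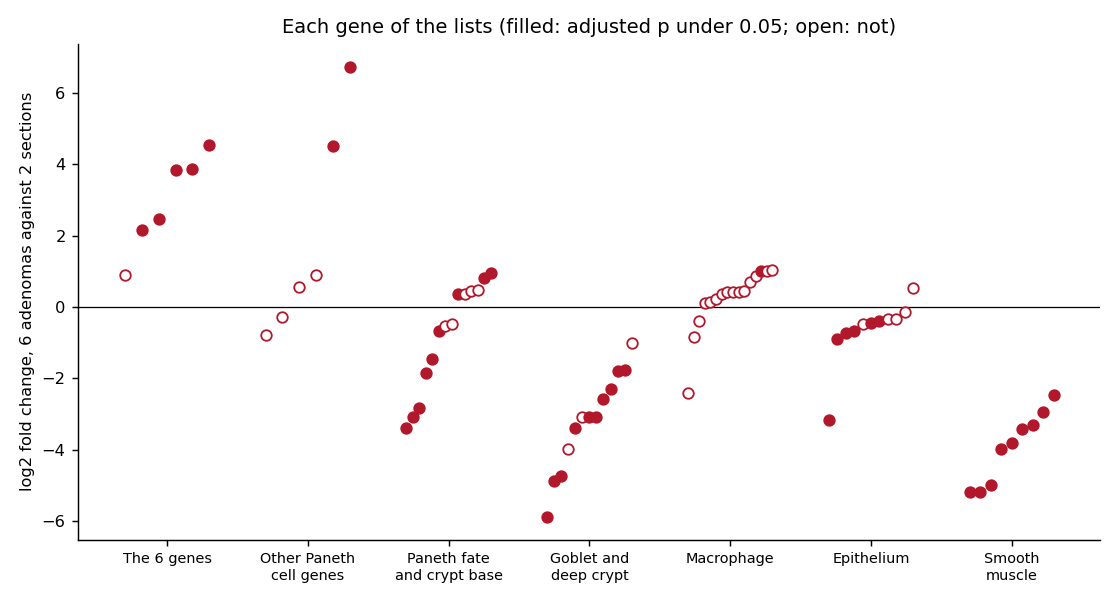
Each point is 1 gene's log2 fold change over both models (vertical axis, 6 adenomas against 2 sections), grouped by list and filled where edgeR's adjusted p was under 0.05. The chosen genes lie between 0.91 and 4.55, while the smooth muscle list lies wholly below 0 and 10 of 13 goblet and deep crypt genes are filled below 0.

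Small intestinal genes were read beside these products. Of 11 tested, 1 rose and 6 fell over both models, where 18.3% of all tested genes were called higher and 15.8% lower. The list summed to 207 to 260 CPM in ApcMin/+ adenomas against 491 CPM in their section. In AOM/DSS adenomas it summed to 154 to 214 CPM against 228 CPM in theirs. The gene that rose was Onecut2, a transcription factor (6.2 ± 0.89, edgeR, adjusted p = 0.00588), and Fabp2, a fatty acid carrier of enterocytes, fell by 5.01 (SE 0.83, edgeR, adjusted p = 0.00694). The enterocyte enzyme genes Sis, Lct and Alpi, chosen after their values were seen, reached at most 0.172, 0.182 and 0.267 CPM in any adenoma. Of 10 genes of normal colon epithelium 7 fell and none rose over both models, beside the same shares of all tested genes. Hoxd13 of that list, chosen after its values were seen, was called higher in ApcMin/+ adenomas (4.05 ± 0.68, edgeR, adjusted p = 0.0202). Car4, a carbonic anhydrase of colonocytes, fell by 7.23 on the log2 scale (SE 1.28, edgeR, adjusted p = 0.00804).

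Other antimicrobial genes and neutrophil genes did not move as one, beside 18.3% of all tested genes called higher and 15.8% lower over both models. Of 11 tested antimicrobial genes 1 rose, Lcn2, which withholds iron from bacteria (3.84 ± 1.15, edgeR, adjusted p = 0.0372), and 3 fell, Lgals4, Lgals3 and Zg16. Of 11 neutrophil genes 3 rose, Mmp9, Csf3r and S100a9, by 3.55, 2.45 and 2.28 on the log2 scale (edgeR, adjusted p = 0.00898, 0.011 and 0.0203), and Ly6g fell by 2.52 (SE 0.82, edgeR, adjusted p = 0.0476). The neutrophil list, whose cells also carry Lyz2, summed to 258 to 509 CPM in ApcMin/+ adenomas against 135 CPM in their section, and to 117 to 272 CPM in AOM/DSS adenomas against 195 CPM in theirs. Its part in the Lyz2 level was not tested. Among 7 further lysozyme-family genes only Lyzl4 had enough counts to test, and it reached at most 0.631 CPM.

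For each gene the most similar patterns among 11740 genes were found by Pearson's r of log2 CPM over the 8 libraries, given as a description because the libraries share tissue and model. Lyz1 was closest to Slc12a4 (r = 0.992) and Snd1 (0.99), Itln1 to Mybbp1a (0.992) and Grwd1 (0.99), Pla2g2a to Ubfd1 (0.999) and Snapc3 (0.994), and Habp2 to Erich3 (0.993) and R3hdml (0.992). Ang4 was closest to Heg1 (0.981), followed by the alpha-defensin Defa17 (0.971). Lyz2 was closest to Samsn1 (0.974) and Fam46c (0.961). No other of the 6 genes was among the 5 most similar of any of them.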

How the data were processed

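The authors deposited, per the file headers, estimated counts per gene, FPKM values and the ratio of each adenoma's FPKM to that of its section. The submitters' processing notes name build mm9. The aligner, counter, read length and use of strand remain not given in the sources used here. Without strand, overlapping and antisense genes cannot be told apart. The lowest deposited estimated count and FPKM was 1 in every library. Over 313 genes the log2 SD of FPKM per count was 0.285 as deposited and 0.11 after subtracting 1 from both, so 1 was subtracted, and counts were rounded to whole numbers. Of 31189 genes, 27 had dates for symbols. A count of 0 allows 3 counts, 0.128 to 0.172 CPM by library, for counting error only.

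Tests used edgeR 4.0.16 (R 4.3.3): TMM scaling, filter by expression (minimum count 10, total 15), quasi-likelihood test, Benjamini-Hochberg adjustment over all 17218 genes within each of 5 comparisons, calls at adjusted p under 0.05. SE is the log2 fold change over the root of F. Alternatives were DESeq2 1.42.0 (also its size factors), upper quartile and epithelial scaling, no filter, 1 kept in, and limma 3.58.1 on log2 FPKM plus 1 or 0.1. Further ones were fits on part of the libraries, a replicate block and each adenoma left out. Each section was left out only in the comparison over both models. The members and lists were chosen with earlier results of these data known. Named were the 6 genes, up to 4 genes per list with the smallest p over both models and the 5 most similar genes per member (mean log2 CPM at least 2); the text gives part of these. Sequences come from RefSeq and GENCODE on GRCm38, a later build than that of the counts.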

Additional observations from a re-analysis of the deposited data

Results flagged for a closer look

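Among all genes on the lists, 2 had every adenoma on opposite sides of its section in the 2 models. Clps, a Paneth cell gene in some lists, had 9.17, 24.1 and 21.1 CPM in ApcMin/+ adenomas against 34.1 CPM in their section, and 16.8, 12.7 and 17.95 CPM in AOM/DSS adenomas against 11.1 CPM in theirs. The difference between the models in its log2 change was 1.42 ± 0.72 (SE, edgeR, adjusted p = 0.642), which did not pass. Ear2, an eosinophil ribonuclease related to Ang4, had 0.454, 0.842 and 0.687 CPM in ApcMin/+ adenomas against 4.30 CPM in their section, and 1.89, 2.77 and 1.15 CPM in AOM/DSS adenomas against 0.901 CPM in theirs, a difference of 3.79 ± 0.93 (SE, edgeR, adjusted p = 0.46). Each side leans on 1 section.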

How the results depend on the processing

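The direction of the 6 genes in adenomas against sections held under every alternative run, and the calls did not. When 1 adenoma was left out, counts of the 6 called higher ranged from 3 to 5 in ApcMin/+ adenomas and 0 to 3 in AOM/DSS adenomas. Between the adenomas of the models they ranged from 0 to 1. Over both models, leaving out a section leaves the change of 1 model alone, so no such range is given. In AOM/DSS adenomas DESeq2 called 6 and limma without a filter 1. For the difference between models DESeq2 called 2 lower. Between the adenomas of the models, where nothing was called, the sign of Lyz1 turned to 0.01 without the filter or with the 1 kept in, 0.08 in all 3 limma fits, 0.06 with the replicate block, 0.15 without the third AOM/DSS adenoma and 0.52 without the second ApcMin/+ adenoma, and Habp2 to 0.16 without that second ApcMin/+ adenoma. Leaving out 1 adenoma gave -0.22 to 0.52 for Lyz1 and -0.51 to 0.16 for Habp2. The cause was not tested. Over all genes, calls ranged from 354 to 4419 in ApcMin/+ adenomas (2824 as reported), 0 to 2805 in AOM/DSS adenomas (862) and 541 to 4235 between adenomas (3122). They ranged from 0 to 267 for the difference between models (0), and from 3258 to 8007 over both models with every library kept (5871). Scaling to epithelial genes put 85.6%, 67.4% and 84.0% of calls higher in ApcMin/+, AOM/DSS and both, against 61.3%, 47.4% and 53.6% as reported. Deviations from the group mean had correlations of -0.090, -0.294 and -0.257 between same-numbered adenomas, and -0.012 to 0.237 between differently numbered ones. With 3 adenomas per group, these values cannot tell whether the replicate numbers stand for a shared order or batch. With the replicate block, 541 genes and none of the 6 were called between adenomas, Ang4 coming closest (log2 difference 0.71, adjusted p = 0.0611). Depth limits Habp2 most, with 5 counts in the ApcMin/+ section.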
